A study of Mus musculus with 33 samples.

Results

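mRNA levels of 8 primitive endoderm genes, Gata4, Gata6, Sox17, Sox7, Foxa2, Pdgfra, Dab2 and Cubn, were examined in RNA-seq of mouse embryonic stem cells (ESCs) lacking members of the Hp1 family or Setdb1. The members were chosen by gene symbol from the 55487 genes of the deposited tables, and all 8 were found. The primitive endoderm is the epithelium that separates from the epiblast in the inner cell mass and gives rise to the parietal and visceral endoderm of the yolk sac. FGF4 from epiblast precursors acts through FGF receptors and ERK to favor this fate, GATA6 opposes NANOG in the choice between both, and GATA4, SOX17 and SOX7 act after GATA6. ESCs correspond to the epiblast and carry these genes at low levels, and forced GATA factors are known to turn ESCs into extraembryonic endoderm cells.

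HP1α, HP1β and HP1γ, encoded by Cbx5, Cbx1 and Cbx3, bind methylated H3K9, and SETDB1 is a methyltransferase that places this mark. There were 11 conditions with 3 libraries each, 33 libraries in all, and every sample is labelled as ESCs of the C57BL/6 strain. Single knockouts of 1 paralog are written as Hp1α KO, Hp1β KO and Hp1γ KO, double knockouts as DKO with both paralogs named, and the loss of all 3 paralogs as Hp1α/β/γ TKO. The others were ESCs with floxed Setdb1 alleles (Setdb1 FF), their knockout (Setdb1 KO), and a pair of wild-type sets called A and B. The single and double mutants were clones isolated after CRISPR/Cas9 editing. How many clones the 3 libraries of a genotype came from is not given in the sources used here. Effects of the deleted gene and of the clone thus cannot be told apart, and the p-values below measure spread between libraries. Hp1α/β/γ TKO cells came from Hp1α/β DKO ESCs with a floxed Hp1γ allele that were transfected with Cre and used after 72 h. Setdb1 KO cells came from Setdb1 FF ESCs after removal of the floxed exons by Cre. The cells were grown on embryonic fibroblast feeders, which were removed only by letting them settle on gelatin for a short time. In bulk RNA, more cells that express a gene and more RNA of it in each cell cannot be told apart.

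Library totals ran from 17330936 to 25743149 counts. The targeted genes were first checked. Cbx1 was at 42.1 to 47.6 CPM (the count divided by the TMM-scaled library size in units of 1e6) in Hp1α/β/γ TKO cells and 430 to 448 CPM in wild-type set A. Cbx3 was at 59.2 to 63.9 CPM against 173 to 186 CPM, and Cbx5 at 267 to 276 CPM against 479 to 490 CPM. Setdb1 was at 67.7 to 71.7 CPM in Setdb1 KO cells and 131 to 136 CPM in Setdb1 FF ESCs. The edited exons were not looked at, and part of each transcript was still counted. The methods describe a control-vector transfection of the floxed cells, whereas set A is labelled as wild type, and its Cbx1 level lay far above the 94.7 to 97.6 CPM of Hp1α/β DKO ESCs. Replicate 2 of Hp1α/γ DKO ESCs stood apart (Cbx5 85.4 CPM against 182 and 183 CPM in the other libraries), and no call of a member in this mutant changed when it was left out.

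All 8 genes were sparsely counted. Gata4 (ENSMUSG00000021944, chromosome 14, 63198922 to 63271692 of GRCm38) had at least 11 counts in each of the 33 libraries. Fewer than 10 counts were found for Foxa2 (ENSMUSG00000037025, chromosome 2, 148042877 to 148046969) in 30 libraries and for Sox17 (ENSMUSG00000025902, chromosome 1, 4490931 to 4497354) in 25. The same held for Gata6 (ENSMUSG00000005836, chromosome 18, 11052064 to 11085635) in 18 libraries and for Cubn (ENSMUSG00000026726, chromosome 2, 13276338 to 13491813) in 13. Sox7 (ENSMUSG00000063060, chromosome 14, 63943673 to 63950732), Pdgfra (ENSMUSG00000029231, chromosome 5, 75152292 to 75198215) and Dab2 (ENSMUSG00000022150, chromosome 15, 6299788 to 6440712) fell below 10 counts in 7, 6 and 3 libraries. A filter on low counts kept 5 of the 8 members in the comparisons of single and double mutants, without Gata6, Sox17 and Foxa2. It kept 6 in Hp1α/β/γ TKO cells against wild-type set A, without Sox7 and Foxa2, and all 8 in the comparison of Setdb1 KO cells. A member that passes the filter only where it is high had to differ, so the counts of called members below describe those tested and are not a test of the list.

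**Figure D1:**
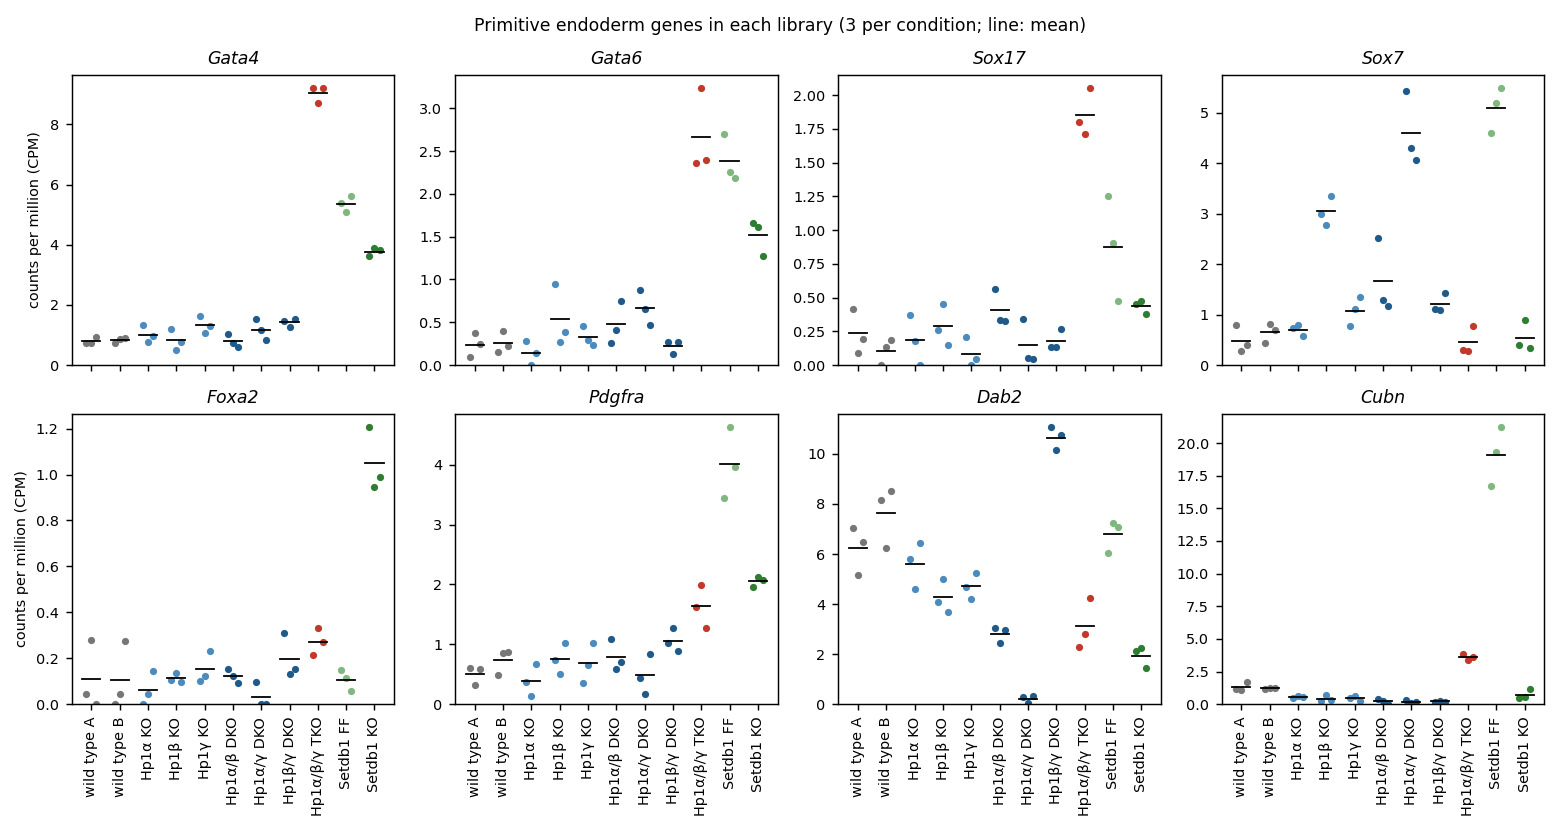
CPM of each primitive endoderm gene (y axes, linear and different for each gene) in 11 conditions (x axes); each point is 1 of 3 libraries and the line is their mean. Gata4, Gata6 and Sox17 are high in Hp1α/β/γ TKO cells and in Setdb1 FF ESCs, Cubn reaches 21.2 CPM in Setdb1 FF ESCs, and Foxa2 exceeds 0.9 CPM in Setdb1 KO cells alone.

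To examine the effect of losing the whole Hp1 family, Hp1α/β/γ TKO cells were set against wild-type set A. The GATA factors and Sox17 were up-regulated most, Pdgfra and Cubn to a lesser extent, and Dab2 was lower by less than the fold threshold. Genes were called at an adjusted p under 0.05 (edgeR's quasi-likelihood test, adjusted over all genes tested by Benjamini-Hochberg) and an absolute log2 fold change over 1. On these terms 5 of 6 tested members were higher and none was lower, where 25.1% of all genes tested were called higher and 17.1% lower. Gata6 and Sox17 had fewer than 10 counts in every library of set A and passed the filter only through Hp1α/β/γ TKO cells. For them, being tested already required a high level in these cells, so their calls and p-values are not separate support. The study named Gata4, Gata6, Sox17 and Foxa2 as endoderm markers up-regulated in these libraries, so their direction here is not independent evidence. It also reported induction of their proteins by western blot, and of germ layer genes by RT-qPCR. Those measurements were not re-examined here.

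Gata4, a zinc finger factor of extraembryonic endoderm, was at 9.22, 8.70 and 9.21 CPM in the 3 libraries of Hp1α/β/γ TKO cells and at 0.74, 0.74 and 0.92 CPM in wild-type set A. The groups did not overlap, and the log2 fold change was 3.53 (SE 0.194, adjusted p = 2.65e-12), which is 11.5-fold. Gata6, the factor at the head of this lineage, was at 2.36, 3.23 and 2.40 CPM against 0.09, 0.37 and 0.24 CPM, a log2 fold change of 3.50 (SE 0.409, adjusted p = 2.18e-07). Its wild-type libraries held 2, 8 and 5 counts, and all 3 lay below every library of the mutant. Sox17, an HMG-box factor of endoderm, had 42, 36 and 53 counts (1.80, 1.71 and 2.05 CPM) against 9, 2 and 4 counts (0.42, 0.09 and 0.19 CPM). Its libraries were also fully separated, with a log2 fold change of 2.99 (SE 0.452, adjusted p = 6.33e-06).

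Pdgfra, the receptor for PDGF-A that marks primitive endoderm, was at 1.63, 1.997 and 1.28 CPM against 0.60, 0.32 and 0.58 CPM. The lowest mutant library lay above the highest wild-type library, and the log2 fold change was 1.72 (SE 0.389, adjusted p = 4.99e-04). Cubn, the endocytic receptor cubilin of visceral endoderm and kidney, was at 3.82, 3.38 and 3.64 CPM against 1.16, 1.11 and 1.70 CPM. This was a log2 fold change of 1.49 (SE 0.248, adjusted p = 2.11e-05), again with no overlap. Gm13270 lies on the opposite strand of Cubn and had 34, 15 and 21 counts in Hp1α/β/γ TKO cells, its highest in the series, beside 89, 71 and 94 counts of Cubn. The libraries were made with a stranded kit, but the strand setting used in counting is not given in the sources used here, so whether reads of both genes were kept apart where they overlap is uncertain.

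Dab2, an adaptor for clathrin-mediated uptake that binds LRP2 and related receptors, was at 2.27, 2.80 and 4.26 CPM against 7.03, 5.14 and 6.50 CPM. Each mutant library lay below each wild-type library, but its log2 fold change of −0.95 (SE 0.212, adjusted p = 4.32e-04) missed the fold threshold. It passed without replicate 3 of Hp1α/β/γ TKO cells (−1.26), without replicate 2 of set A (−1.09) and when set B replaced set A as control (−1.23). Sox7 had 7, 6 and 20 counts (0.30, 0.29 and 0.77 CPM) against 17, 6 and 8 counts (0.79, 0.28 and 0.39 CPM), overlapped with the wild type, and was not tested. Foxa2, the forkhead factor of definitive and visceral endoderm, had 5, 7 and 7 counts against 1, 6 and 0. Fitted without the filter, its log2 fold change was 1.27 with a 95% interval of −0.64 to 3.18 (adjusted p = 0.281), so no difference was detectable at this depth. On the length-corrected TPM scale, Gata4 had the highest level of the 8 in Hp1α/β/γ TKO cells at 5.32 ± 0.275 TPM (SD, n = 3), ahead of Sox17 at 2.98 ± 0.732 TPM.

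**Figure D2:**
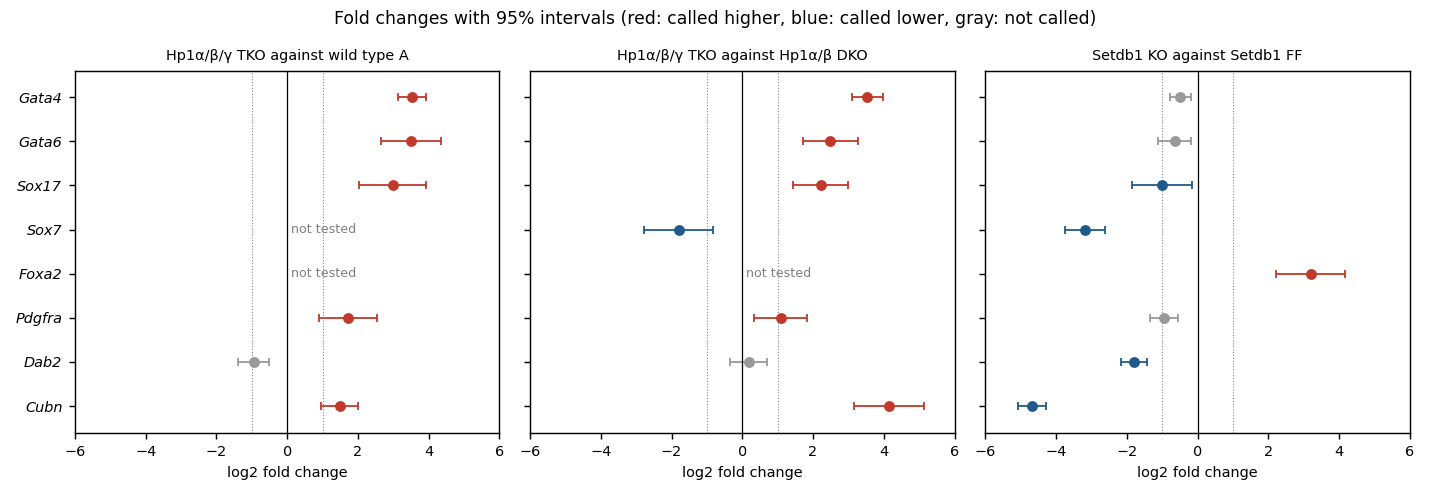
log2 fold changes (x axes) of the 8 genes (y axes) with 95% intervals in Hp1α/β/γ TKO cells against wild-type set A, the same cells against Hp1α/β DKO ESCs, and Setdb1 KO cells against Setdb1 FF ESCs; dotted lines mark a log2 fold change of 1 in either direction. Gata4 stands at 3.53 in both comparisons of Hp1α/β/γ TKO cells and at −0.49 in Setdb1 KO cells, while Cubn stands at 1.49, 4.15 and −4.69.

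Some of these factors were also measured by RT-qPCR in the study, with designed primers. They are shown because they place the amplified part of each transcript, and each pair was found in GENCODE M21 transcripts on GRCm38. The Gata4 pair spans 182 bases of 3 of 6 annotated transcripts, in coding exons at chr14:63201502-63203361 on the minus strand. The Sox17 pair spans 151 bases across a coding exon junction at chr1:4492647-4493228 on the minus strand, in 4 of 8 transcripts. The Foxa2 pair spans 222 bases within a single exon, at chr2:148044297-148044518 on the minus strand, in 3 of 4 transcripts. The RNA-seq counts cover the whole gene and are not limited to these stretches.
Gata4 forward: aaaccagaaaacggaagccc
Gata4 reverse: atagtgagatgacagcccgg
Sox17 forward: gccgagccaaagcgg
Sox17 reverse: gtcaacgccttccaagacttg
Foxa2 forward: ccctacgccaacatgaactcg
Foxa2 reverse: gttctgccggtagaaaggga

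Hp1α/β/γ TKO cells were then compared with Hp1α/β DKO ESCs, which lack the same pair of paralogs but keep Hp1γ. The former had been transfected with Cre, after which the study reported apoptosis and arrest in G1, and the latter were a constitutive mutant. Cre transfection, recent loss and dying cells cannot be told apart from the genes lost, here or against wild-type set A. Here 5 of 7 tested members were higher, against 25.4% of all genes tested, and 1 was lower, against 16.0%. These comparisons share the libraries of Hp1α/β/γ TKO cells with those above. Cubn fell below 10 counts in 3 of 3 Hp1α/β DKO libraries, Sox17 in 2 and Gata6 in 1, and Sox7 in 2 of 3 Hp1α/β/γ TKO libraries. Cubn thus passed the filter only through Hp1α/β/γ TKO cells, and its call is not separate support. Cubn had the largest change, from 8, 5 and 0 counts (0.41, 0.21 and 0 CPM) in Hp1α/β DKO ESCs to 89, 71 and 94 counts. Its log2 fold change was 4.15 (SE 0.461, adjusted p = 4.63e-07) against 1.49 when wild-type set A was the control, since the level in Hp1α/β DKO ESCs lay below that of the wild type. Gata4 was at 1.03, 0.75 and 0.61 CPM in Hp1α/β DKO ESCs, close to the wild type, with a log2 fold change of 3.53 (SE 0.204, adjusted p = 1.18e-10).

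Gata6 was at 0.26, 0.41 and 0.75 CPM in Hp1α/β DKO ESCs, and rose by 2.48 on the log2 scale (SE 0.363, adjusted p = 1.08e-05). Sox17, at 0.57, 0.33 and 0.33 CPM there, rose by 2.21 (SE 0.368, adjusted p = 4.36e-05). Neither gene's libraries overlapped between these genotypes. Sox7, a close relative of Sox17 that is also used in endothelium, went the other way, from 2.53, 1.29 and 1.18 CPM to 0.30, 0.29 and 0.77 CPM (log2 fold change −1.79, SE 0.458, adjusted p = 1.99e-03). Pdgfra was at 1.08, 0.58 and 0.71 CPM in Hp1α/β DKO ESCs, with a log2 fold change of 1.08 (SE 0.355, adjusted p = 0.0111). The call for Pdgfra was lost without replicate 2 of Hp1α/β/γ TKO cells (0.91, adjusted p = 0.0572), without replicate 2 (0.87) or replicate 3 (0.99) of Hp1α/β DKO ESCs, and on the TPM scale (0.21). Dab2 was at 3.04, 2.45 and 2.96 CPM in Hp1α/β DKO ESCs, overlapped with Hp1α/β/γ TKO cells, and had a log2 difference of 0.18 with a 95% interval of −0.35 to 0.71.

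To ask whether the change on losing all 3 paralogs exceeds the sum of the changes in the single mutants, the log2 effects of the 3 single mutants were subtracted from that of Hp1α/β/γ TKO cells in 1 fit of 15 libraries. The single mutants were constitutive too, so Cre transfection and recent loss cannot be told apart from the combined loss here either. The excess was 2.44 for Gata4 (SE 0.625, adjusted p = 1.89e-03), 4.57 for Sox17 (SE 1.67, adjusted p = 0.0221) and 5.91 for Cubn (SE 0.753, adjusted p = 5.83e-07). These were 3 of 7 tested members, where 22.3% of all genes tested were called higher. For Cubn, the effects in the single mutants were negative (−1.25, −1.66 and −1.53), against 1.49 in Hp1α/β/γ TKO cells. Most of its excess thus comes from subtracting these falls, which rest on few counts. Sox7 had an excess of −4.33 (SE 0.877, adjusted p = 2.02e-04), where 16.0% of genes were called lower. Its effects in the single mutants were positive (0.53, 2.62 and 1.14), and its level in Hp1α/β/γ TKO cells overlapped with the wild type. Sox17 had at most 10 counts in any library of a single mutant, and its call was lost without replicate 1 of wild-type set A (3.16, adjusted p = 0.219). Gata6 (2.66, 95% interval −0.26 to 5.58) and Pdgfra (1.09, interval −1.05 to 3.23) did not pass. Gata6 passed without replicate 1 of Hp1β KO ESCs (3.31, adjusted p = 0.0389) and without replicate 1 of Hp1α KO ESCs (3.59, adjusted p = 0.0438). Dab2 had an excess of 0.16 with an interval of −0.69 to 1.01.

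In single and double Hp1 mutants, Cubn was lower in each genotype, Sox7 was higher in 4 of 6, and Dab2 was lower in Hp1α/β DKO and Hp1α/γ DKO ESCs. No tested member was higher in Hp1α KO or Hp1β/γ DKO ESCs, where 1.56% and 7.32% of all genes tested were called higher. Gata4 and Pdgfra were not called in any of them. Single mutants and Hp1α/β DKO ESCs had wild-type set A as their control, and Hp1α/γ DKO and Hp1β/γ DKO ESCs had set B, as in the deposited tables. Each set serves as the control of several mutants, so these values are given side by side and are not independent of each other.

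Cubn was at 1.11 to 1.70 CPM in wild-type set A, and set B had 1.18 to 1.25 CPM. It was at 0.46, 0.62 and 0.57 CPM in Hp1α KO ESCs, a log2 fold change of −1.25 (adjusted p = 0.0117), where 3.31% of all genes tested were called lower. In Hp1β KO ESCs it was at 0.21, 0.73 and 0.29 CPM, a log2 fold change of −1.66 (adjusted p = 0.0117), where 6.36% of genes were lower. In Hp1γ KO ESCs it was at 0.46, 0.62 and 0.28 CPM, a log2 fold change of −1.53 (adjusted p = 5.80e-03), where 3.55% of genes were lower. Every one of these mutant libraries lay below every library of set A. The call in Hp1α KO ESCs was lost without its replicate 1 (−1.14, adjusted p = 0.0519) and without replicate 3 of set A (−1.03, adjusted p = 0.0809), and the call in Hp1β KO ESCs without replicate 3 of set A (−1.45, adjusted p = 0.0574). On the scale of log2(TPM + 0.1) the changes were −0.65, −0.83 and −0.75 in these mutants, and none was called by limma. Cubn averaged 0.153 TPM in set A and 0.06, 0.043 and 0.05 TPM in the mutants. The added 0.1 is of the size of these levels and shrinks the changes.

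Mean Cubn levels were 0.18 to 0.21 CPM in the double mutants and 0.41 to 0.55 CPM in the single mutants. Libraries of double and single mutants overlapped, and a difference between them was not tested. Cubn had 8, 5 and 0 counts in Hp1α/β DKO ESCs (log2 fold change −2.67, SE 0.591, adjusted p = 1.36e-03), where 5.19% of all genes tested were lower. There were 6, 2 and 3 counts in Hp1α/γ DKO ESCs (−2.74, SE 0.397, adjusted p = 1.46e-03, or −2.48 without its replicate 2), where 16.3% of genes were lower. In Hp1β/γ DKO ESCs, 4, 6 and 5 counts were found (−2.51, SE 0.358, adjusted p = 3.12e-05), where 4.54% of genes were lower. All 9 double-mutant libraries lay below all 6 wild-type libraries. The ratio of summed counts to the wild type was 0.153 (95% exact interval 0.0780 to 0.275), 0.149 (0.0717 to 0.282) and 0.171 (0.0915 to 0.300) in these 3 genotypes, intervals that cover counting error only. The promoter window of Cubn is shown because this gene moved in the most comparisons. It holds 300 bases, 250 before and 50 after the RefSeq start (chr2:13491827-13492126 of GRCm38.p6, minus strand). None of the GATA motifs AGATAA and TGATAA or AGATAG and TGATAG, searched on both strands, was in it, and 29.8% of the 32851 windows of this length hold at least 1 of them.
Cubn promoter: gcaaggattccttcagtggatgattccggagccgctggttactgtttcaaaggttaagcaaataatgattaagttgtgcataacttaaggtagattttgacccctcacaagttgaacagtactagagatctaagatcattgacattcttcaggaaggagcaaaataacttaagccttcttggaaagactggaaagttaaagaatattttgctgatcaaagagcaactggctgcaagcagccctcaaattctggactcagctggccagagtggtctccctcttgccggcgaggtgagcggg

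Sox7 was at 0.28 to 0.79 CPM in wild-type set A, and set B had 0.44 to 0.81 CPM. In Hp1β KO ESCs it was at 2.99, 2.78 and 3.35 CPM, a log2 fold change of 2.62 (SE 0.365, adjusted p = 1.31e-04), where 2.75% of all genes tested were called higher. In Hp1α/γ DKO ESCs it was at 5.43, 4.29 and 4.06 CPM, a log2 fold change of 2.77 (SE 0.280, adjusted p = 3.37e-04, or 2.85 without replicate 2), where 6.75% of genes were higher. Both mutants lay fully above their wild-type libraries. Hp1α/β DKO ESCs, at 2.53, 1.29 and 1.18 CPM, had a log2 fold change of 1.75 (adjusted p = 4.41e-03), where 2.96% of genes were higher. Hp1γ KO ESCs were at 0.77, 1.11 and 1.34 CPM and overlapped with set A. Their log2 fold change of 1.14 (adjusted p = 0.0466, where 2.04% of genes were higher) was not called without replicate 2 (1.12) or 3 (0.95) of Hp1γ KO ESCs, without replicate 2 (0.86) or 3 (1.01) of set A, with set B as the control (0.74) or with DESeq2 (1.16, adjusted p = 0.0617). The changes in Hp1β/γ DKO (0.90, 95% interval 0.23 to 1.57) and Hp1α KO ESCs (0.53, interval −0.45 to 1.51) did not pass. The former passed without replicate 2 of set B (1.09) and with set A as the control (1.315, adjusted p = 7.58e-03).

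Dab2 was lowest in Hp1α/γ DKO ESCs. It was at 0.29, 0.06 and 0.33 CPM there, from 6, 1 and 7 counts, against 8.14, 6.23 and 8.51 CPM in wild-type set B. The log2 fold change was −5.04 (SE 0.397, adjusted p = 1.33e-04), and the ratio of summed counts was 0.0307 (95% exact interval 0.0166 to 0.0519). It stayed between −5.40 and −4.60 when any 1 library was left out, and the latter is the value without replicate 2 of Hp1α/γ DKO ESCs. In Hp1α/β DKO ESCs, with 3.04, 2.45 and 2.96 CPM, its log2 fold change was −1.15 (SE 0.186, adjusted p = 7.83e-05). Hp1β/γ DKO ESCs instead had the highest level of the series, at 11.1, 10.2 and 10.74 CPM, all above set B, but their log2 fold change of 0.49 (adjusted p = 3.23e-03) missed the fold threshold. Dab2 was at 3.69 to 6.44 CPM across the libraries of single mutants and was not called in these, although each library of Hp1β KO ESCs lay below set A (−0.56, adjusted p = 0.0234).

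Fibroblasts express Dab2 and Pdgfra too, and feeders were part of the culture. The summed level of 12 feeder fibroblast markers was 26.5 to 29.2 CPM in Hp1α/γ DKO ESCs and 61.4 to 72.8 CPM in wild-type set B, with 7 of 10 tested markers lower and 1 higher, where 16.3% of all genes tested were lower and 6.75% higher. Col1a2 was at 0.05 to 0.34 CPM there against 4.89 to 6.86 CPM, and Col6a3 was the marker called higher. Set B itself had a higher sum than set A, and 2 of 10 tested markers, Col1a1 and Col1a2, were called higher in set B. Between these sets 2.55% of all genes tested were called higher. The fall against set B thus includes a difference between the wild-type sets. The list was at 18.03 to 21.6 CPM in Hp1α/β/γ TKO cells against 40.8 to 42.8 CPM in set A, where 4 of 10 tested were lower and 1 was higher (17.1% and 25.1% of all genes), and its part in the Dab2 values was not tested.

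**Figure D3:**
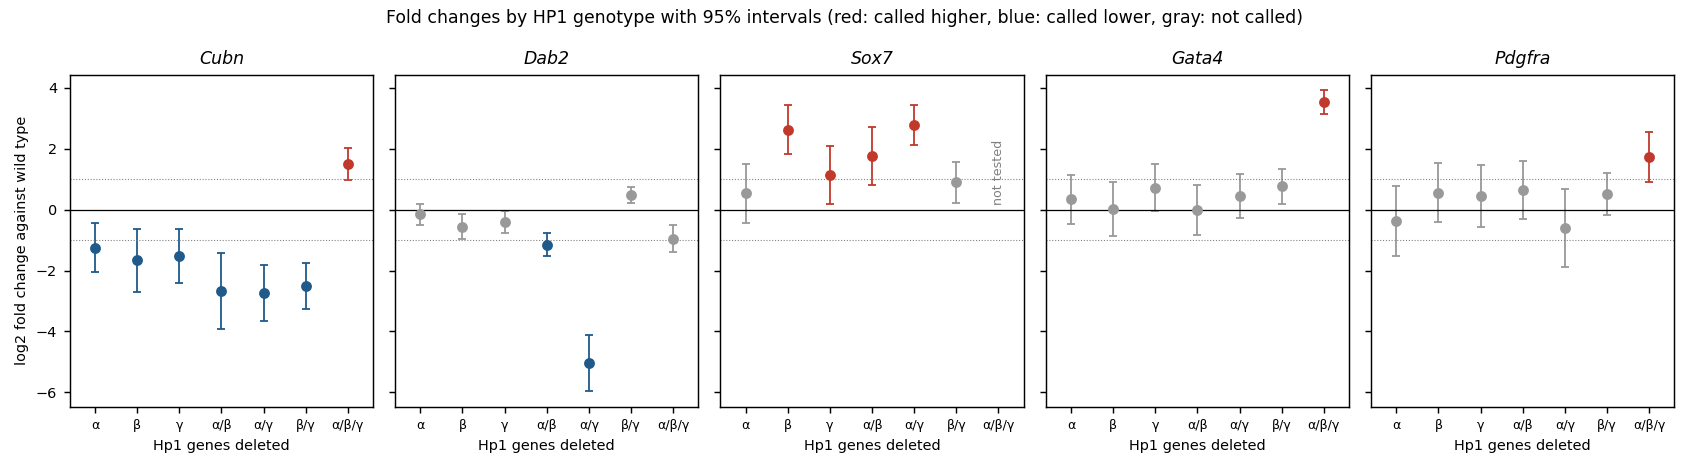
log2 fold changes with 95% intervals (y axis) of Cubn, Dab2, Sox7, Gata4 and Pdgfra by the Hp1 genes deleted (x axes), each against the wild-type set of its deposited table; Sox7 was not tested in Hp1α/β/γ TKO cells. Cubn lies between −1.25 and −2.74 in single and double mutants and at 1.49 in Hp1α/β/γ TKO cells, and Dab2 reaches −5.04 in Hp1α/γ DKO ESCs.

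RefSeq places 2 starts in Dab2, and the window of the upstream one is shown because it is the only one of the 7 windows found for members that holds these GATA motifs at more than 1 place. It covers chr15:6299539-6299838 of GRCm38.p6 on the plus strand, and capitals mark TGATAA at −179 from the start and TTATCT, the reverse complement of AGATAA, at 15. Among all windows, 9.05% contain TGATAA and 11.2% contain AGATAA. The window of the downstream start and that of Pdgfra hold none, and AGATAA is in 1 of 3 Foxa2 windows. Gata4, Gata6, Sox17 and Sox7 were not among the 4 members matched in this table.
Dab2 upstream promoter: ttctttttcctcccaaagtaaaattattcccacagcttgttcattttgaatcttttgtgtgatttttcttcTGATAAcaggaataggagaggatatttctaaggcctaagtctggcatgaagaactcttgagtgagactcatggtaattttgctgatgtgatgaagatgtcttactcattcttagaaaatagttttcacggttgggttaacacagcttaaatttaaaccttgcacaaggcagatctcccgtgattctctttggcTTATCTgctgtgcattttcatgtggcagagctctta

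Gata4 ranged from 0.50 to 1.64 CPM in the 18 libraries of single and double mutants, and its 6 log2 fold changes from −0.01 to 0.77. The highest, in Hp1β/γ DKO ESCs at 1.45, 1.26 and 1.55 CPM, had an adjusted p of 0.0275 with every library above set B, but was under the fold threshold. In Hp1γ KO ESCs, at 1.64, 1.07 and 1.30 CPM, Gata4 also lay above set A, with a log2 fold change of 0.72 and an adjusted p of 0.112. Pdgfra ranged from 0.13 to 1.26 CPM, with log2 fold changes from −0.62 to 0.63, and passed in Hp1β/γ DKO ESCs only with set A as the control (1.07, adjusted p = 0.0194). Gata6, Sox17 and Foxa2 were not tested in these mutants. Their highest values were 18 counts of Gata6, in 1 library each of Hp1β KO and Hp1α/γ DKO ESCs, 11 counts of Sox17 in Hp1α/β DKO ESCs, and 7 counts of Foxa2 in Hp1β/γ DKO ESCs. Between wild-type sets B and A, 0 of 5 tested members were called, where 2.55% of all genes tested were higher and 3.12% lower. At an unadjusted p under 0.05 none of the 5 passed either, and the counts were also 0 with DESeq2 and with limma on TPM.

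Setdb1 KO cells were compared with Setdb1 FF ESCs to ask whether loss of this methyltransferase moves the same genes. Cubn, Sox7, Dab2 and Sox17 were down-regulated, and Foxa2 was up-regulated. Of the 8 tested members 4 were lower, where 11.4% of all genes tested were called lower, and 1 was higher, where 18.5% were called higher. Gata4, Gata6 and Pdgfra were lower by less than the fold threshold.

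Cubn was at 16.7, 19.3 and 21.2 CPM in Setdb1 FF ESCs, the highest level of any member in the series, and at 0.50, 0.52 and 1.13 CPM in Setdb1 KO cells. The log2 fold change was −4.69 (SE 0.189, adjusted p = 1.93e-13), which is 25.8-fold lower. Sox7 was at 4.60, 5.19 and 5.49 CPM against 0.40, 0.90 and 0.33 CPM, and fell by 3.19 on the log2 scale (SE 0.271, adjusted p = 7.39e-09). Dab2 was at 6.05, 7.22 and 7.08 CPM against 2.11, 2.23 and 1.46 CPM, and fell by 1.79 (SE 0.175, adjusted p = 4.56e-08). No library of these 3 genes overlapped between the genotypes. The feeder fibroblast list was at 16.3 to 17.7 CPM in Setdb1 FF ESCs, with no count of Postn or Lum and at most 0.10 CPM of Col1a2. Thy1 averaged 5.01 CPM, Fbln2 4.49 CPM and Col1a1 2.13 CPM there. Against wild-type set A, 7 of 9 tested markers were lower and 1, Pdgfrb, was higher (16.1% and 12.2% of all genes tested). The list was at 8.07 to 9.59 CPM in Setdb1 KO cells, with 3 of 5 tested markers lower (11.4% of all genes), and its part in the Dab2 change was not tested.

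Foxa2 had 24, 20 and 21 counts (1.21, 0.95 and 0.99 CPM) in Setdb1 KO cells and 3, 2 and 1 counts in Setdb1 FF ESCs. Its log2 fold change was 3.19 (SE 0.462, adjusted p = 6.61e-06). The ratio of summed counts was 9.51, with a 95% exact interval of 4.14 to 26.9 for counting error. In all other conditions of the series Foxa2 had at most 7 counts in a library, so the 3 libraries of Setdb1 KO cells were the only ones with 10 or more. Foxa2 had fewer than 10 counts in every Setdb1 FF library and passed the filter only through Setdb1 KO cells. Being tested already required a high level there, so its call and p-value are not separate support. The gene was left out where at least 10 counts in every library were required.

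Sox17 was at 1.25, 0.90 and 0.47 CPM in Setdb1 FF ESCs and 0.45, 0.47 and 0.38 CPM in Setdb1 KO cells, groups that overlapped. Its log2 fold change of −1.01 (SE 0.399, adjusted p = 0.0286) lay just past the threshold. The call was lost with DESeq2 (−1.01, adjusted p = 0.0992), with RLE size factors (−0.999), in the joint fit, on the TPM scale and in 5 of 6 fits that left out 1 library, where the values ran from −1.31 to −0.66. Only the fit without replicate 3 of Setdb1 FF ESCs kept it. Gata4 was at 5.40, 5.08 and 5.61 CPM against 3.62, 3.88 and 3.82 CPM, a log2 fold change of −0.49 (adjusted p = 4.07e-03). Gata6 was at 2.70, 2.26 and 2.18 CPM against 1.66, 1.61 and 1.27 CPM, a log2 fold change of −0.64 (adjusted p = 0.0139). Pdgfra was at 3.45, 4.63 and 3.96 CPM against 1.96, 2.13 and 2.08 CPM, a log2 fold change of −0.94 (adjusted p = 1.66e-04), and it passed without replicate 1 of Setdb1 FF ESCs (−1.06). All 3 genes had fully separated libraries. On the TPM scale the median of all genes moved by 0.48 in this comparison and by 0.37 in that of Hp1α/β/γ TKO cells, and on that scale the log2 difference of Gata4 in Setdb1 KO cells was 0.05.

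The level in Setdb1 FF ESCs itself set these members apart from both wild-type sets, and this comparison was added after the levels had been seen. Against wild-type set A, 5 of 6 tested members were higher in Setdb1 FF ESCs, where 12.2% of all genes tested were called higher, and none was lower, where 16.1% were. The log2 fold changes were 3.84 for Cubn (SE 0.159), 3.37 for Sox7 (SE 0.300), 3.30 for Gata6 (SE 0.401), 2.97 for Pdgfra (SE 0.293) and 2.73 for Gata4 (SE 0.226), each with fully separated libraries. Dab2 differed by 0.11, with a 95% interval of −0.19 to 0.42. Gata6, under 10 counts in every library of set A, passed the filter only through Setdb1 FF ESCs, and Sox17 was removed by this filter. Fitted without it, Sox17 had a log2 fold change of 1.88 (adjusted p = 1.49e-03) and its libraries lay above set A. The floxed allele, the line and the day of the experiment cannot be told apart here. Cbx1 was at 169 to 176 CPM in Setdb1 FF ESCs, below the 430 to 448 CPM of set A, and 6 of 8 pluripotency genes were higher, so these ESCs differed from set A well beyond the primitive endoderm genes. After Setdb1 loss, Gata4 (3.62 to 3.88 CPM) and Gata6 (1.27 to 1.66 CPM) still lay above each library of both wild-type sets, whereas Sox7 (0.33 to 0.90 CPM) overlapped with both, and Cubn (0.50 to 1.13 CPM) overlapped with set A and lay below set B.

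When the conditions were ordered by mean CPM, Gata4 was highest in Hp1α/β/γ TKO cells, then in Setdb1 FF ESCs and Setdb1 KO cells, each fully separated from the next. All other neighbors in its order overlapped. Gata6 had the same 3 conditions at the top, but Hp1α/β/γ TKO cells and Setdb1 FF ESCs overlapped. Sox17 was highest in Hp1α/β/γ TKO cells and, apart from the step below these, every pair of neighbors overlapped. Sox7 began with Setdb1 FF and Hp1α/γ DKO ESCs, which overlapped, and Hp1β KO ESCs followed. Pdgfra and Cubn were highest in Setdb1 FF ESCs. Dab2 ran from Hp1β/γ DKO ESCs at the top to Hp1α/γ DKO ESCs at the bottom, both separated from their neighbors. Over the 11 condition means of log2(CPM + 0.5), Pearson's r between Gata4 and Gata6 was 0.92, between Gata4 and Sox17 0.87, and between Gata4 and Dab2 −0.08. These are descriptions over conditions that share depth and scaling, and several rest on few counts.

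Among 14616 genes searched, the 3 whose condition means were most like those of Gata4 were Ank1 (r = 0.97), Klb (0.96) and Snx1 (0.95). For Gata6 they were Kansl3, Dclre1a and Sirt3 (0.97 to 0.96), for Sox17 Nhlrc2, Rerg and Utp25 (0.97 to 0.95), and for Sox7 Capns1, Ftsj1 and Trim8 (0.97 to 0.91). Foxa2 was most like Klk1b24, Ctcfl and Figla (each 0.98). Dab2 was most like Speg, Kank1 and Zfp280c (0.94 to 0.93), Pdgfra like Rims2, Hnf4a and Sh3tc2 (0.95 to 0.94), and Cubn like Tmem117, Bend6 and Kif11 (0.93). No member was among the 3 genes most like another.

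Genes that act around this lineage were then examined. Their counts are read against all genes tested, of which 25.1% were called higher and 17.1% lower in Hp1α/β/γ TKO cells, and 18.5% higher and 11.4% lower in Setdb1 KO cells. Of 8 other endoderm factors, 6 were tested in Hp1α/β/γ TKO cells against wild-type set A, and 3 were higher and 1 lower (median log2 fold change 1.18, against 0.035 for all genes tested). Foxa1, a relative of Foxa2, rose by 2.22 and Snai1 by 1.38 on the log2 scale, and Hhex, a factor of anterior visceral endoderm, fell by 1.41. In Setdb1 KO cells 3 of 7 tested were higher and 2 lower (median 0.50, against 0.0149 for all genes). Foxa1 had a log2 fold change of 4.37 (SE 0.572, adjusted p = 1.97e-06) and Foxa3 one of 1.22, beside the 3.19 of Foxa2, while Foxq1 fell by 1.96.

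Basement membrane and parietal endoderm genes, which parietal endoderm makes in bulk, were mostly lower. In Hp1α/β/γ TKO cells 7 of 13 tested were lower, where 17.1% of all genes were, and 1 was higher (median −1.22), and in Setdb1 KO cells 7 of 13 were lower, where 11.4% of all genes were, and 2 higher (median −1.69). The laminin genes Lama1, Lamb1 and Lamc1 had log2 fold changes of −1.96, −1.64 and −1.94 in Hp1α/β/γ TKO cells, and the nidogen gene Nid1 fell by 2.29. In Setdb1 KO cells Lama1 fell by 2.74, Nid1 by 2.12, the collagen gene Col4a1 by 2.48 and Srgn by 4.25. The summed level of this list was 541 to 557 CPM in Hp1α/β/γ TKO cells against 1501 to 1524 CPM in set A.

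Among visceral endoderm genes 3 of 11 tested were higher and 3 lower in Hp1α/β/γ TKO cells (median −0.31), where 25.1% of all genes were higher and 17.1% lower, so these counts were near the background. In Setdb1 KO cells 2 of 9 were higher, near the 18.5% of all genes, and 4 were lower, where 11.4% were (median −0.995). Ihh, a hedgehog ligand of visceral endoderm, rose from 0.14 to 1.84 CPM in Hp1α/β/γ TKO cells (log2 fold change 3.70, adjusted p = 4.05e-06), and Lhx1 (5.45) and Apom (3.03) rose as well. Apoe fell by 1.69 there and by 1.86 in Setdb1 KO cells. Rbp4, a retinol carrier, fell by 1.70 in Hp1α/β/γ TKO cells and rose by 1.55 in Setdb1 KO cells. Amn, which anchors cubilin in the membrane, fell by 1.36 in Setdb1 KO cells, where Cubn fell by 4.69. Lrp2, the other receptor that works with cubilin and DAB2, fell by 1.02 in Hp1α/β/γ TKO cells and had −0.995 in Setdb1 KO cells.

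Of 9 genes of FGF signaling, 4 were lower in Hp1α/β/γ TKO cells, where 17.1% of all genes were, and none was higher, where 25.1% were (median −0.60). In Setdb1 KO cells 1 was lower, which is at the background of 11.4%, and none was higher, where 18.5% were (median −0.23). Fgf4, the ligand that favors primitive endoderm, fell from 277 to 35.3 CPM in Hp1α/β/γ TKO cells (log2 fold change −2.94, SE 0.0393, adjusted p = 1.31e-21) and by 1.47 in Setdb1 KO cells. The ERK target genes Spry4, Etv5 and Dusp6 were lower in Hp1α/β/γ TKO cells, with log2 fold changes of −2.60, −2.096 and −1.06. Of 8 pluripotency genes 4 were lower in Hp1α/β/γ TKO cells and none was higher (median −0.64), namely Sox2 (log2 fold change −1.59), Nanog (−1.498), Tfcp2l1 (−1.27) and Pou5f1 (−1.09), and only Tfcp2l1 (−1.20) was lower in Setdb1 KO cells, near the background.

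**Figure D4:**
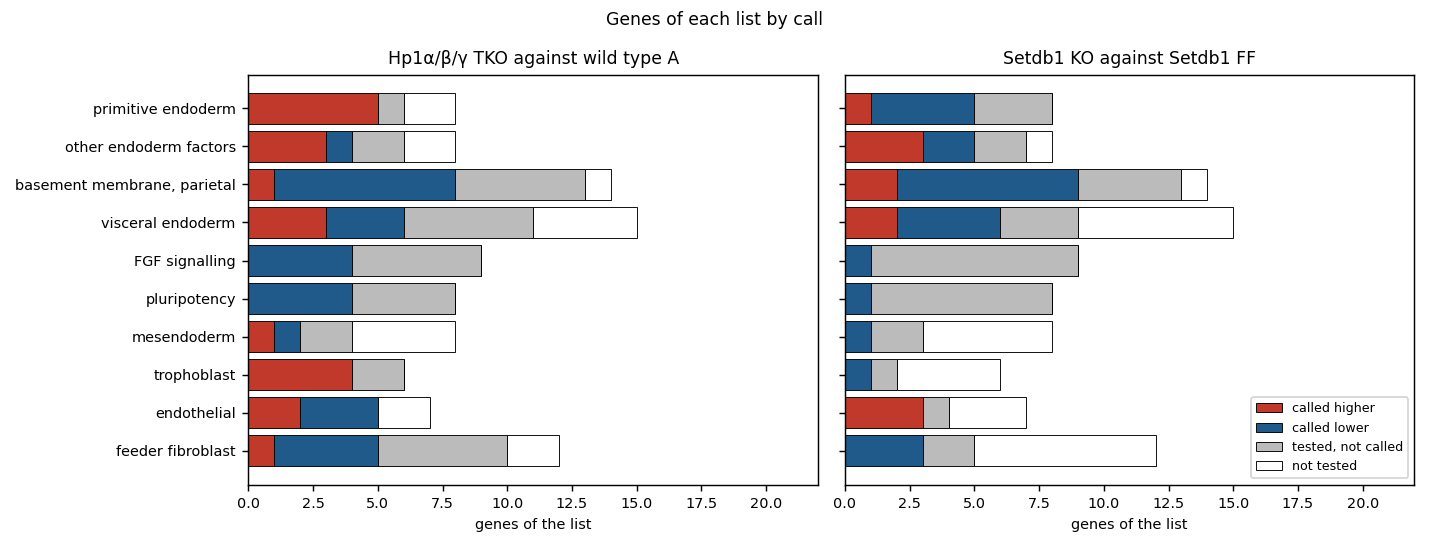
Numbers of genes (x axes) of 10 lists (y axis) called higher, called lower, tested and not called, or not tested, in Hp1α/β/γ TKO cells against wild-type set A and in Setdb1 KO cells against Setdb1 FF ESCs. Of the primitive endoderm genes 5 are higher in the former, and 1 is higher and 4 are lower in the latter, while basement membrane and parietal genes are mostly lower in both.

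Markers of other cell types were set beside these values. The summed level of 8 mesendoderm genes was 6.46 to 8.96 CPM in Hp1α/β/γ TKO cells and 8.24 to 11.9 CPM in wild-type set A, with Lhx1 higher and Eomes lower (−1.04) among 4 tested. The sum was 3.35 to 3.72 CPM in Setdb1 KO cells and 10.9 to 11.5 CPM in Setdb1 FF ESCs, where Eomes fell by 3.20. Of 6 trophoblast genes 4 were higher in Hp1α/β/γ TKO cells, where 25.1% of all genes were, including Gata3 (1.40) and Hand1 (1.09). Of 5 tested endothelial genes 2 were higher, Cdh5 (5.69) and Tie1 (2.26), and 3 lower, including Tek (−2.89) and Kdr (−2.41), where 25.1% of all genes were higher and 17.1% lower, with a summed level of 11.7 to 13.6 CPM against 63.7 to 67.0 CPM. Emcn had no count in either group. The endothelial list was at 6.66 to 12.4 CPM in Hp1α/γ DKO ESCs and 60.4 to 63.5 CPM in set B. Most of the endothelial sum in set A was Tek, with a mean of 56.4 CPM, while Cdh5 averaged 0.03 CPM and Tie1 0.22 CPM. The sum there thus mainly reflects 1 gene. The part of these cell types in the values of Sox17 and Sox7 was not tested.

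Finally, the effect of losing the Hp1 family was set against that of losing Setdb1 in 1 fit of 12 libraries, with the log2 change from Setdb1 FF to Setdb1 KO subtracted from that between wild-type set A and Hp1α/β/γ TKO cells. The difference was called for 6 of 8 members, all in the direction of a higher value in Hp1α/β/γ TKO cells, where 15.4% of all genes tested were called in this direction and 16.5% in the other. It was largest for Cubn (6.15, SE 0.307) and followed by Gata6 (4.12, SE 0.458), Gata4 (3.99, SE 0.226), Sox17 (3.97, SE 0.630), Sox7 (3.14, SE 0.627) and Pdgfra (2.64, SE 0.385). Gata6 and Sox17 had fewer than 10 counts in every library of set A and passed the filter only through groups where they were higher. Sox7 had fewer than 10 counts in 2 of 3 libraries each of set A, Hp1α/β/γ TKO and Setdb1 KO cells. The calls of Gata6, Sox17 and Sox7 are thus not separate support. Dab2 differed by 0.82 (95% interval 0.20 to 1.44, adjusted p = 0.0204), under the fold threshold, and passed without replicate 1 of Hp1α/β/γ TKO cells (1.03). For Foxa2 the difference was −1.93 with an interval of −4.15 to 0.29, and it was called only without replicate 3 of set A (−2.49, adjusted p = 0.0347). Both effects start from different levels, since the controls differed as described above.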

How the data were processed

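RNA-seq of 33 ESC libraries was analysed from 8 gene tables. The estimated counts were deposited by the authors without normalization, and the submitters' processing notes name TopHat2 2.1.1, RSEM, edgeR and GRCm38.p5 with no role or order. TPM values, scaled per library for gene length and depth, were also deposited by the authors. Columns holding the authors' own comparisons were not used. The library kit keeps strand (TruSeq Stranded Total RNA), but the strand setting used in counting is not given in the sources used here.

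Counts were rounded to whole numbers. Genes were filtered per comparison with filterByExpr (minimum count 10), scaled by TMM and tested by edgeR 4.0.16's two-sided quasi-likelihood test in R 4.3.3, with only the groups compared in each fit. CPM values used TMM factors from all 33 libraries. DESeq2 1.42.0, RLE size factors, other filters, a joint fit, the other wild-type set, a block on replicate number and leaving out each library were alternatives. Limma 3.58.1 on log2(TPM + 0.1) and the comparison of Setdb1 FF ESCs with set A were added after values had been seen, and TMM factors computed without the most highly counted genes were run once and dropped unread. The fits were tested on simulated data. The methods describe the 3 libraries of a group as biological replicates, those of Hp1α/β/γ TKO cells from independent experiments. An exact permutation test of 3 against 3 cannot go below 0.1 and was not used. Intervals of count ratios are exact and cover counting error only.

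The members and lists were chosen with earlier results of these data known. The 8 members are always named. Of each other list, the called genes of largest absolute change are named, at most 4 per comparison, if their higher group averaged 1 CPM or more. Lrp2, Apoe in Hp1α/β/γ TKO cells and Foxa1 in these cells were named after their values were seen. A gene of the list of other endoderm factors that meets this rule is not reported here. Genes most alike were the 3 with the highest Pearson's r among named genes reaching a mean of 1 CPM in at least 1 condition. Promoters and their starts are from RefSeq, gene positions and exons from GENCODE M21.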

Additional observations from a re-analysis of the deposited data

Results flagged for a closer look

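The log2 effect of losing the Hp1 family differed from that of losing Setdb1 for 6 of the 8 genes, by a test of the difference itself (edgeR's quasi-likelihood test, adjusted over all genes). The difference was 6.15 for Cubn (adjusted p = 3.36e-14), 4.12 for Gata6 (adjusted p = 4.05e-08), 3.99 for Gata4 (adjusted p = 3.30e-13), 3.97 for Sox17 (adjusted p = 7.85e-06), 3.14 for Sox7 (adjusted p = 1.34e-04) and 2.64 for Pdgfra (adjusted p = 2.45e-06). Gata6 and Sox17 had fewer than 10 counts in every library of set A, and Sox7 had so in 2 of 3. Whether these genes were tested depended on groups where they were higher, so their p-values are not separate support. In CPM, Cubn, Gata4, Gata6, Sox17 and Pdgfra were higher in Hp1α/β/γ TKO cells than in set A in 3 of 3 libraries. Also in CPM, Cubn, Gata4, Gata6, Sox7 and Pdgfra were lower in Setdb1 KO cells than in Setdb1 FF ESCs in 3 of 3 libraries. In TPM, Gata4 and Gata6 overlapped between Setdb1 KO cells and Setdb1 FF ESCs. Gata4 had means of 2.43 and 2.35 TPM in these, and Gata6 had 0.907 and 1.04 TPM. The cell line and its level before deletion differ between both experiments and cannot be told apart from the gene deleted.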

How the results depend on the processing

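Each comparison was repeated under the alternatives, but the other wild-type set was used only where an Hp1 mutant was compared with a wild-type set. A member that a filter removed under an alternative has no value there and is left out of the values of single members. Of the counts of called members under an alternative, 364 stayed within 1.5 times the value reported and 44 did not, and of the values of single members 1112 kept direction and side of the threshold, 29 lost and 24 gained a call, and 18 changed sign.

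Requiring at least 10 counts in every library removed most members, so fewer were tested. Members called higher then numbered 0 in Hp1β KO, Hp1γ KO, Hp1α/β DKO, Hp1α/γ DKO and Setdb1 KO cells, 1 for the excess over single mutants, and 2 in Hp1α/β/γ TKO cells against set A, against Hp1α/β DKO ESCs, for the difference from Setdb1 loss, and in Setdb1 FF ESCs. Members called lower numbered 0 in Hp1β KO, Hp1γ KO, Hp1α/γ DKO and Hp1β/γ DKO ESCs, in Hp1α/β/γ TKO against Hp1α/β DKO cells and for the excess, 1 in Hp1α/β DKO ESCs and 2 in Setdb1 KO cells. Without the fold threshold 2 were lower in Hp1β KO, 1 in Hp1α/β/γ TKO and 7 in Setdb1 KO cells, and 3 were higher in Hp1β/γ DKO ESCs.

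In Hp1γ KO ESCs 0 were higher with DESeq2, with set B as the control, and on TPM. On TPM 0 were lower in Hp1α KO and Hp1γ KO ESCs, 1 was lower in Hp1α/β/γ TKO cells, and the excess was called for 5, with Dab2 at 1.54 and Gata6 at 2.46. TPM moved the median of all genes by 0.37 in Hp1α/β/γ TKO cells against set A and the share of calls that were higher from 59.5% to 77.3%, by 0.48 and from 62.0% to 84.5% in Setdb1 KO cells, by 0.41 and from 61.4% to 80.4% against Hp1α/β DKO ESCs, and by −0.36 and from 29.2% to 14.2% in Hp1α/γ DKO ESCs. The joint fit gave 2 higher in Hp1α/γ DKO ESCs, and the other wild-type set gave 2 higher in Hp1β/γ DKO ESCs (Sox7 and Pdgfra) and 1 lower in Hp1α/β/γ TKO cells. The cause was not tested.

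Leaving out 1 library gave 0 to 1 members lower in Hp1α KO, Hp1β KO and Hp1α/β/γ TKO cells, 0 to 1 lower for the difference from Setdb1 loss, and 0 to 1 higher in Hp1γ KO and Hp1β/γ DKO ESCs. Signs changed only for small or sparsely counted values. Ranges were −0.99 to 0.043 for Pdgfra in Hp1α KO, −0.33 to 0.28 for Gata4 in Hp1β KO and −0.23 to 0.14 for Gata4 in Hp1α/β DKO ESCs. Dab2 ranged from −0.12 to 0.36 against Hp1α/β DKO ESCs, from −0.16 to 0.38 for the excess and from −0.010 to 0.21 in Setdb1 FF ESCs. Between wild-type sets Gata4 ranged from −0.00074 to 0.18 and Cubn from −0.21 to 0.12, and the difference for Foxa2 ranged from −2.49 to 0.016. With set B as the control Gata4 was at −0.044 in Hp1β KO and Pdgfra at −0.11 in Hp1γ KO ESCs, and Gata4 was at 0.049 in Setdb1 KO cells on TPM.

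Samples with the same replicate number deviated from their group means with r between −0.085 and 0.13, so the numbers were not taken to pair them. With a replicate block 0 members were higher in Hp1γ KO ESCs (Sox7 1.18, adjusted p = 0.0643), Sox17 was at −0.95 in Setdb1 KO cells and not called, and Gata4 was at −0.024 in Hp1β KO ESCs. The block changed no other call of a member. Counts under 10 limited Foxa2, Sox17 and Gata6 most.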
